A study of Mus musculus with 6 samples.

Results

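The genes described here encode the machinery of oxidative phosphorylation, the respiratory chain and the ATP synthase of the inner mitochondrial membrane, in macrophages with and without Cdh11. The rule for members uses gene symbols and no expression values, but it was set with earlier results of these data known. It took nuclear protein-coding genes of the Nduf, Uqcr, Cox4 to Cox8 and Atp5 series, Sdhb, Sdhc, Sdhd, Cyc1 and Cycs, together with the 13 protein-coding genes of mitochondrial DNA. This gave 107 of the 42256 genes in the deposited count table, 94 nuclear and 13 mitochondrial. Sdha, the catalytic subunit of complex II, is not covered by this choice, and symbols of the Ndufaf series and Atp5s brought in 9 nuclear genes whose products assemble the complexes or associate with them rather than being subunits. RNA came from macrophages grown out of the marrow of male adult mice on a mixed 129S1/Sv x C57BL/6 background. The knockout group (CDH11-/-, 3 libraries, KO) and the wild-type group (CDH11+/+, 3 libraries, WT) were both grown for 7 days with 20% L929-conditioned medium, a source of the macrophage growth factor CSF1, and 10% FBS, and were left untreated. Cdh11 encodes cadherin-11, an adhesion protein, and the deletion is not described as limited to a cell type.

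In this pathway, complexes I and II pass electrons to coenzyme Q, complex III passes them on to cytochrome c, and complex IV hands them to oxygen. Complexes I, III and IV pump protons, and complex V, the ATP synthase, lets them flow back to make ATP. Subunits come from both genomes: mitochondrial DNA encodes only core membrane subunits of complexes I, III, IV and V, and the nucleus encodes the rest and all of complex II. In macrophages the balance between respiration and glycolysis is known to shift with activation state.

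Libraries held 27170943 to 37113689 counts. Values are CPM, counts scaled to a common library total after TMM scaling. The words rose and fell are used of KO where the quasi-likelihood test of edgeR, with p-values adjusted by the Benjamini-Hochberg method over all 12862 genes tested (edgeR adjusted p), passed 0.05. By this rule 35.2% of all genes tested were called, 18.5% higher and 16.8% lower in KO, with a median log2 fold change over all genes of 0.00. The design text of the study counts 4 KO and 3 WT animals, whereas 3 KO libraries are analysed here. Because no label ties a library to an animal, the p-values reflect spread among libraries, which may be technical. Cdh11 itself had 6, 4 and 5 counts in KO libraries, against 6, 11 and 6 counts in WT libraries, too few to check the genotype. Defining macrophage markers were present in all 6 libraries, at a summed 20496 to 26353 CPM in KO libraries, against 32992 to 35638 CPM in WT libraries. Of these 10 markers Mrc1, Csf1r, Lyz2 and Cd14 fell and Cd68 rose, so the genotypes differed in macrophage genes as well, and the part this plays in the results was not tested. The calls of Mrc1 and Csf1r held whichever library was left out. Those of Lyz2 (without WT 1 or WT 2), Cd14 (without KO 1, KO 3, WT 1 or WT 3) and Cd68 (without KO 2, KO 3, WT 1 or WT 2) did not, with edgeR adjusted p of 0.0547 to 0.135. In RNA from a whole culture, a change in the kinds of cells and a change in RNA per cell cannot be told apart.

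Nuclear oxidative phosphorylation genes were higher in KO macrophages as a group of small changes. The share of mitochondrial genes that rose was near that of all genes tested. Of 94 nuclear members, 89 passed the filter on low counts, and 55 of these rose and 1, Cox7a2l, fell. The share that rose was 61.8%, beside 18.5% of all genes tested. The median log2 fold change of the 89 genes was 0.30, a 1.23-fold difference, with 83 estimates above 0 and 6 below. In 66 of the 89 genes every KO library lay above every WT library, which held for 27.0% of all genes tested, and in 2 genes, Cox7a2l and Cox6b2, every KO library lay below, which held for 26.4%. Of the 13 mitochondrial genes 3 rose (23.1%, beside 18.5% of all genes tested) and 0 fell, beside 16.8% of all genes tested. Their median log2 fold change was 0.09. In 5 of the 13 every KO library lay above every WT library, beside 27.0% of all genes tested. In 0 of the 13 every KO library lay below, beside 26.4%. Within complex I the median was 0.21 for the 7 mitochondrial genes and 0.25 for the 36 nuclear genes. The difference between the genomes was not tested. The number of nuclear rises was 32 without WT 2 and ran from 37 to 62 without any other single library. Of the 55 genes 31 were called whichever library was left out. The share of all genes called in either direction, 35.2% with all libraries, moved as well. It was 41.7% without KO 1, 20.8% without KO 2, 18.2% without KO 3, 15.1% without WT 1, 19.0% without WT 2 and 28.0% without WT 3. All later counts without a library stand beside these shares.

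Summed over the 94 nuclear genes, the level was 6540.3, 7364 and 6905 CPM in KO libraries, against 5969, 5583 and 5673 CPM in WT libraries. The lowest KO library, KO 1, was above the highest WT library, WT 1. Summed over the 13 mitochondrial genes, the level was 22512, 20225 and 19862 CPM in KO libraries, against 19879.8, 19810.2 and 21775 CPM in WT libraries, with the genotypes overlapping and KO 1 the highest of all. The number of mitochondrial counts for each nuclear count was therefore 3.44, 2.75 and 2.88 in KO libraries, against 3.33, 3.55 and 3.84 in WT libraries. KO 2 and KO 3 lay below all WT libraries in this ratio, but KO 1 lay inside the WT range. Without the 3 mitochondrial genes with the most counts, mt-Co1, mt-Cytb and mt-Nd5, the ratio was 1.42, 1.16 and 1.23 in KO libraries, against 1.29, 1.35 and 1.51 in WT libraries. The log2 ratio of the means, -0.24 with all 13 genes, was -0.12 without these 3, and KO 1 then lay above WT 1 and WT 2. Over all 13 genes the mean ratio was 3.02 ± 0.37 in KO and 3.57 ± 0.255 in WT (SD, n = 3 each).

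**Figure D1:**
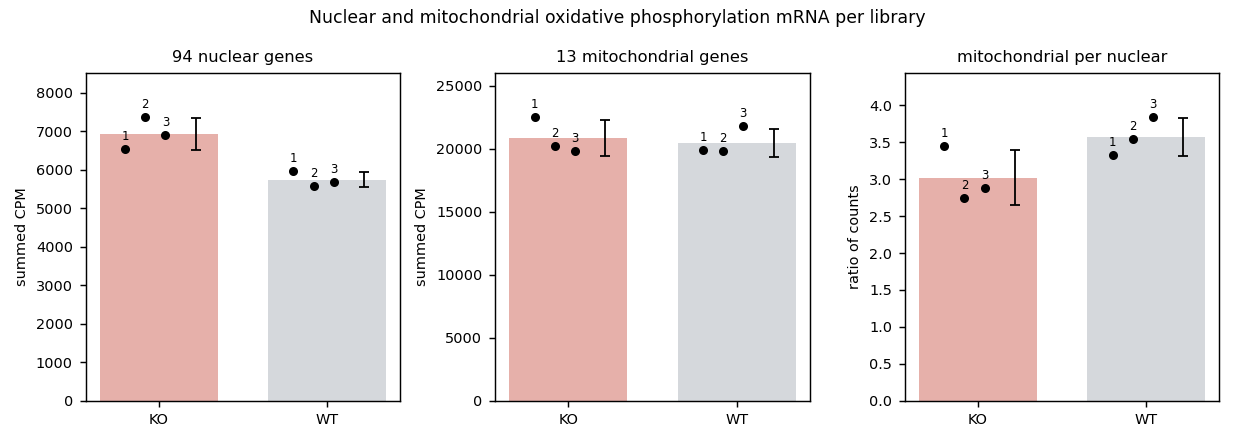
Summed CPM of the 94 nuclear genes (left), summed CPM of the 13 mitochondrial genes (middle) and mitochondrial counts per nuclear count (right) in KO and WT. Bars are means, error bars SD (n = 3), and points are libraries with their replicate number; the nuclear sums do not overlap between genotypes and the mitochondrial sums do.

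**Figure D2:**
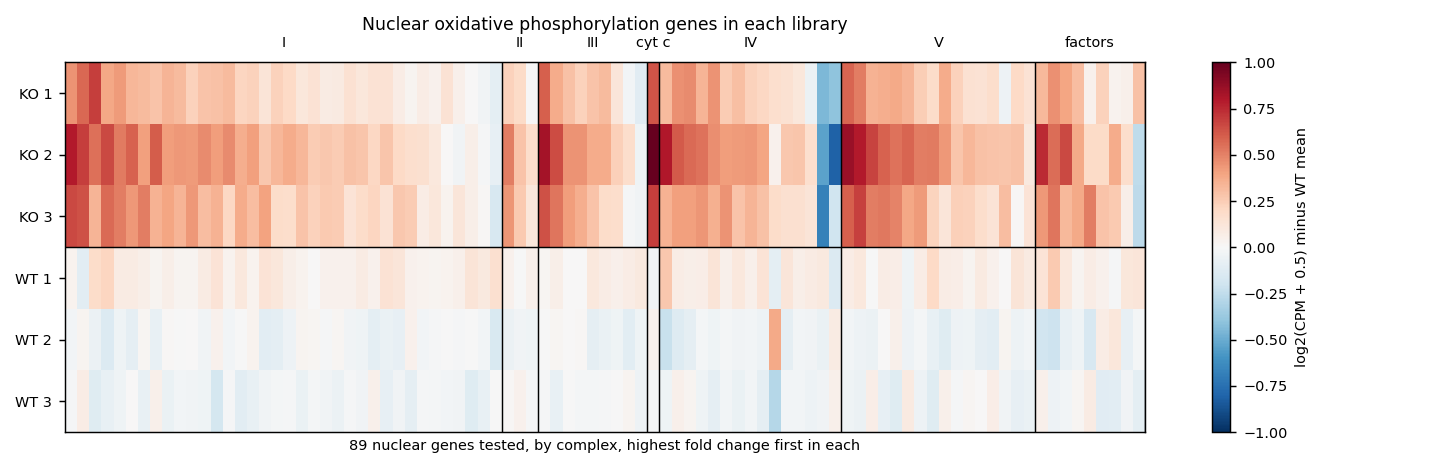
Level of each of the 89 nuclear genes tested in each library, as log2(CPM + 0.5) minus the WT mean, grouped by complex (cyt c, cytochrome c; factors, assembly or associated factors). Most columns are above the WT mean in all 3 KO libraries, most strongly in KO 2, and the columns of Cox7a2l and Cox6b2 in complex IV are below it.

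Promoters are shown for the 4 members with the largest rises that have an entry in the RefSeq promoter table of GRCm38.p6, 250 bases before to 50 after the gene start, 5′ to 3′ on the strand of the gene. Capitals mark exact matches, on either strand, to core letters bound by regulators known from respiratory genes: GCGCATGCG for NRF1, CCGGAAG for ETS factors such as GABPA, AANATGGCG for YY1, and CACGTG for the E-box. Cycs (chr6:50566520-50566819, minus strand) holds 1 NRF1 match starting 61 bases before the start. Atp5g1 (chr11:96075582-96075881, minus strand) holds 1 E-box starting 44 bases before it. Atp5k (chr5:108434350-108434649, minus strand) holds 2 overlapping NRF1 matches and 1 ETS match, and Ndufb6 (chr4:40279372-40279671, minus strand) holds 1 ETS match.
Cycs: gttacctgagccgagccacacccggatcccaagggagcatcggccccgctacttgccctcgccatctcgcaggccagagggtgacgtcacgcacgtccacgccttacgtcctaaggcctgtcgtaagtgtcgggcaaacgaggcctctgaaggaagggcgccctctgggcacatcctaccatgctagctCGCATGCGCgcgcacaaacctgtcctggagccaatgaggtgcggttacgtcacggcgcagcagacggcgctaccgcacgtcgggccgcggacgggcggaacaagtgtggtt
Atp5g1: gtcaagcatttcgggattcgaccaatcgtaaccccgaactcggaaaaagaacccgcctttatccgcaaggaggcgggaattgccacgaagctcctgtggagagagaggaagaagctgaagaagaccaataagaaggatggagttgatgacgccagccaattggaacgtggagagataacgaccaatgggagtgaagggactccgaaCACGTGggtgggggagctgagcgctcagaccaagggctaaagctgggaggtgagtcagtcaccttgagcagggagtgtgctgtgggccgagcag
Atp5k: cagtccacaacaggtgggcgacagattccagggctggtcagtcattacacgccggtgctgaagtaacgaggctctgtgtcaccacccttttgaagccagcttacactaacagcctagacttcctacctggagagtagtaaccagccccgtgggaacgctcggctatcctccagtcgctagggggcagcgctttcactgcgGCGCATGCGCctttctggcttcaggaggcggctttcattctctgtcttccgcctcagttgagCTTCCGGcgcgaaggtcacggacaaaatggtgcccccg
Ndufb6: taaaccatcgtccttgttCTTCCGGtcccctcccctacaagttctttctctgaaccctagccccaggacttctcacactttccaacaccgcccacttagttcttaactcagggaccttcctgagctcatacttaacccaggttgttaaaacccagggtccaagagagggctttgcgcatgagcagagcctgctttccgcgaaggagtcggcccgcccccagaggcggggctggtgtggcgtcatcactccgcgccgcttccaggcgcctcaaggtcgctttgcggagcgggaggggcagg

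Of the 94 nuclear members 76 had a promoter in the table. The NRF1 letters were in 11 of the 76 (14.5%), beside 2.41% of 17492 promoters of coding genes. They were in 9 of the 45 promoters of members that rose and in 2 of the 28 of members that were not called. The ETS letters were in 17 of the 76 (22.4%), beside 11.9% of coding promoters, but in 7 of 45 members that rose and in 10 of 28 that were not called. The YY1 letters were in 9 (11.8%, beside 3.30%) and the E-box in 6 (7.89%, beside 7.90%). These are matches of letters in a fixed window, not measured binding.

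Complex I takes electrons from NADH and is the largest of the complexes. Of its 36 nuclear subunit genes, all of them tested, 24 rose (66.7%, beside 18.5% of all genes tested). The median log2 fold change was 0.25, and their summed level was 1711, 1870.4 and 1797 CPM in KO libraries, against 1588, 1492 and 1479.6 CPM in WT libraries. The number of rises was 11 without WT 2, 13 without KO 2 or KO 3, 14 without WT 1 or WT 3, and 27 without KO 1. The largest rises were in supernumerary subunits, which surround the catalytic core and take no part in electron transfer. Ndufb6, of the membrane arm (ENSMUSG00000071014, GRCm38 chr4:40270591-40279421, minus strand), was at 29.6, 37.7 and 34.3 CPM in KO libraries, against 22.1, 21.1 and 21.3 CPM in WT libraries (log2 fold change 0.65, SE 0.09, edgeR adjusted p = 0.00566). Ndufa12, of the matrix arm (ENSMUSG00000020022, GRCm38 chr10:94198720-94221443, plus strand), was at 35.3, 38.3 and 36.8 CPM in KO libraries, against 21.9, 24.0 and 24.9 CPM in WT libraries (log2 fold change 0.64, SE 0.07, edgeR adjusted p = 0.00433). For both genes the genotypes were well apart, and the KO values were about 1.57-fold and 1.56-fold those of WT.

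Ndufa5, a small subunit of the matrix arm, was at 14.5, 17.6 and 16.5 CPM in KO libraries, against 12.8, 9.93 and 10.4 CPM in WT libraries (log2 fold change 0.55, edgeR adjusted p = 0.0149), a call lost without KO 3 or WT 2 (edgeR adjusted p of 0.0536 and 0.0508). Ndufb4, of the membrane arm, was at 10.4, 9.37 and 8.01 CPM in KO libraries, against 7.15, 5.96 and 5.69 CPM in WT libraries (log2 fold change 0.56, edgeR adjusted p = 0.0219). This call was lost without KO 2, WT 2 or WT 3, with edgeR adjusted p of 0.0574 to 0.0726. Ndufb4 also shares near-identical sequence with the processed pseudogene Ndufb4c on chromosome 15, which held more counts than the gene itself, at 25.3, 27.7 and 24.3 CPM in KO libraries, against 20.6, 20.7 and 19.4 CPM in WT libraries, and rose too (log2 fold change 0.35, edgeR adjusted p = 0.0118). How reads were divided between the 2 loci is not known, so the level of Ndufb4 is uncertain.

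The catalytic core, which holds the flavin and the iron-sulfur clusters, was mixed among its nuclear genes. Ndufv1, Ndufv2 and Ndufs7 rose, by log2 fold changes of 0.42, 0.34 and 0.25. Ndufv1, which binds NADH and the flavin, averaged 66.0 ± 7.96 CPM in KO and 49.3 ± 2.24 CPM in WT (SD, n = 3 each), and its call was lost without WT 1 (edgeR adjusted p = 0.0524). Calls of Ndufv2 were lost without WT 1 or WT 2 (edgeR adjusted p of 0.0527 and 0.0523), and of Ndufs7 in 5 of the 6 reduced sets, the exception being the set without KO 1 (0.0844 to 0.116). Ndufs1 was not called, at 74.1, 83.1 and 77.7 CPM in KO libraries, against 72.4, 66.3 and 66.6 CPM in WT libraries (log2 fold change 0.20, edgeR adjusted p = 0.0534), nor were Ndufs3 and Ndufs8, whose log2 fold changes were 0.09 and 0.05. For Ndufs1 and Ndufs3 all KO libraries lay above all WT libraries, and for Ndufs8 the genotypes overlapped. Among the 29 supernumerary genes 21 rose (72.4%, beside 18.5% of all genes tested). In this group 2 had negative estimates, Ndufb11 (-0.12) and Ndufa6 (-0.01), both with overlapping genotypes.

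Complex II, the succinate dehydrogenase that links the citric acid cycle to coenzyme Q, is entirely nuclear. Sdhc, one of its membrane anchors (ENSMUSG00000058076, GRCm38 chr1:171127165-171150603, minus strand), was at 125, 152 and 145 CPM in KO libraries, against 109.7, 102 and 108 CPM in WT libraries (log2 fold change 0.40, SE 0.08, edgeR adjusted p = 0.0116). Sdhb, the iron-sulfur subunit, was at 108, 115 and 114 CPM in KO libraries, against 94.1, 92.3 and 97.4 CPM in WT libraries (log2 fold change 0.25, edgeR adjusted p = 0.0143), and lost its call without KO 3, WT 1 or WT 2 (edgeR adjusted p of 0.0557 to 0.0608). Sdhd, the other anchor, was not called, at 82.6, 93.6 and 89.6 CPM in KO libraries, against 85.8, 80.3 and 82.2 CPM in WT libraries (log2 fold change 0.10, edgeR adjusted p = 0.261; 95% interval -0.05 to 0.25). The 3 genes of this one complex thus ran from a clear rise to overlapping genotypes.

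Complex III, the cytochrome bc1 complex, had 7 rises among its 9 nuclear genes (77.8%, beside 18.5% of all genes tested). The median log2 fold change of the 9 genes was 0.31. Uqcrq, a small subunit bound to cytochrome b (ENSMUSG00000044894, GRCm38 chr11:53427922-53430831, minus strand), was at 81.7, 95.9 and 84.0 CPM in KO libraries, against 54.3, 53.6 and 53.2 CPM in WT libraries (log2 fold change 0.70, SE 0.07, edgeR adjusted p = 0.00417). Cyc1, the haem protein cytochrome c1 that delivers electrons to cytochrome c (ENSMUSG00000022551, GRCm38 chr15:76343523-76346260, plus strand), was at 64.6, 78.4 and 72.6 CPM in KO libraries, against 51.8, 50.6 and 47.2 CPM in WT libraries (log2 fold change 0.53, SE 0.08, edgeR adjusted p = 0.00637). Both were higher in every KO library than in any WT library. Uqcr10 and Uqcrc1, a small subunit and a core protein, rose by log2 fold changes of 0.39 and 0.35. The Rieske iron-sulfur protein gene Uqcrfs1 averaged 71.4 ± 5.72 CPM in KO and 69.2 ± 4.44 CPM in WT (SD, n = 3 each; log2 fold change 0.04, edgeR adjusted p = 0.678), and the hinge protein gene Uqcrh averaged 76.7 ± 2.29 CPM in KO and 80.1 ± 4.67 CPM in WT (log2 fold change -0.06, edgeR adjusted p = 0.439). Neither was called, and for both the libraries of the genotypes overlapped. Among the 3 electron-carrying subunits of this complex, cytochrome c1 thus rose, whereas the Rieske protein and the mitochondrially encoded cytochrome b were not called.

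Cytochrome c, the soluble carrier between complexes III and IV that also triggers apoptosis when released, had the highest fold change of all 102 members tested. Cycs (ENSMUSG00000063694, GRCm38 chr6:50562563-50566538, minus strand), whose promoter with its NRF1 match is shown above, was at 39.4, 51.4 and 41.2 CPM in KO libraries, against 24.7, 26.0 and 25.1 CPM in WT libraries (log2 fold change 0.80, SE 0.10, edgeR adjusted p = 0.00521). The KO mean was 1.74-fold that of WT. KO 2 was the highest library, and the lowest KO library was well above the highest WT library.

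Complex IV, cytochrome c oxidase, contains several subunits with tissue isoforms. Of its 20 nuclear genes 15 were tested. Among these 8 rose (53.3%, beside 18.5% of all genes tested) and 1 fell, beside 16.8% of all genes tested. The fall was that of Cox7a2l, which was placed in this class by its symbol and is described below. Cox7b was at 81.0, 90.1 and 78.4 CPM in KO libraries, against 61.9, 53.9 and 61.0 CPM in WT libraries (log2 fold change 0.50, SE 0.08, edgeR adjusted p = 0.00668), and Cox5b, a zinc-binding subunit of the matrix side, was at 99.2, 106 and 95.1 CPM in KO libraries, against 74.3, 67.0 and 72.9 CPM in WT libraries (log2 fold change 0.49, SE 0.07, edgeR adjusted p = 0.00556). Cox7c and Cox6a1, both small membrane subunits, rose by log2 fold changes of 0.42 and 0.38, and Cox6b1, which faces the intermembrane space, by 0.34. Ndufa4, first assigned to complex I and now placed in complex IV, averaged 99.7 ± 5.52 CPM in KO and 78.9 ± 5.28 CPM in WT (SD, n = 3 each; log2 fold change 0.34, edgeR adjusted p = 0.0123). Cox6c rose by 0.30 but lost its call without KO 2, KO 3, WT 2 or WT 3 (edgeR adjusted p of 0.0788 to 0.0903). Cox4i1, the largest nuclear subunit, was not called, at 315, 368 and 358 CPM in KO libraries, against 348, 319.7 and 317 CPM in WT libraries (log2 fold change 0.08, edgeR adjusted p = 0.452; 95% interval -0.10 to 0.26). Cox8a and Cox5a were not called either, at 0.19 and 0.19, although their KO libraries all lay above the WT libraries.

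Cox7a2l, also called SCAF1, links complex III to complex IV in supercomplexes and was the one member that fell. It (ENSMUSG00000024248, GRCm38 chr17:83501918-83517330, minus strand) was at 149, 140.0 and 127 CPM in KO libraries, against 217, 195 and 199 CPM in WT libraries (log2 fold change -0.55, SE 0.08, edgeR adjusted p = 0.00558), and its call held whichever library was left out. Its relative Cox7a2, the isoform of the complex IV subunit found in most tissues, moved the other way, at 50.2, 57.8 and 54.1 CPM in KO libraries, against 41.4, 39.1 and 38.4 CPM in WT libraries (log2 fold change 0.45, SE 0.07, edgeR adjusted p = 0.00623). The number of Cox7a2l counts for each Cox7a2 count, not corrected for length, was 2.96, 2.42 and 2.35 in KO libraries, against 5.25, 4.98 and 5.19 in WT libraries. This ratio averaged 2.58 ± 0.333 in KO and 5.14 ± 0.137 in WT (SD, n = 3 each). Since Cox7a2l was lower and Cox7a2 higher in every KO library, the genotypes had to lie apart in it. The ratio is therefore a description and adds no evidence to the calls of the single genes.

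**Figure D3:**
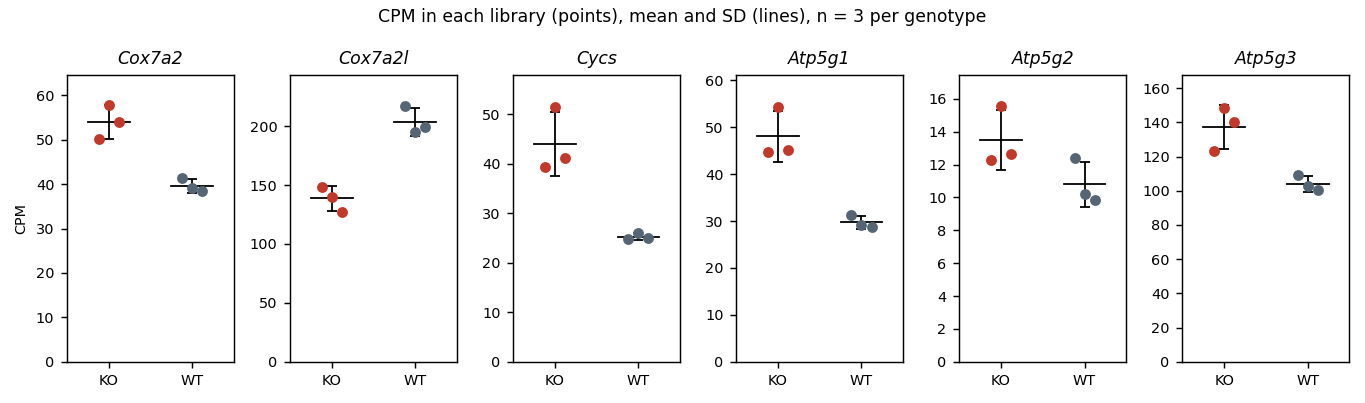
CPM of Cox7a2, Cox7a2l, Cycs and the 3 genes of the ATP synthase c subunit in each library, KO left of WT. Points are libraries, lines the mean and SD (n = 3); Cox7a2l is lower in KO, and the other genes are higher in KO except Atp5g2, whose genotypes overlap.

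Heart, muscle, lung and testis isoforms of complex IV were at or near the limit of detection in both genotypes. Cox7a1, of heart and muscle, was at 1.65, 2.51 and 1.69 CPM in KO libraries, against 1.58, 0.981 and 1.17 CPM in WT libraries (log2 fold change 0.63, edgeR adjusted p = 0.104). Cox6a2, its counterpart for subunit 6a, was at 0.421, 0.343 and 0.432 CPM in KO libraries, against 0.268, 0.566 and 0.172 CPM in WT libraries, and Cox6b2, of testis, at 1.12, 0.721 and 1.36 CPM in KO libraries, against 1.45, 1.77 and 1.72 CPM in WT libraries (log2 fold change -0.62, edgeR adjusted p = 0.111), and none of the 3 was called. The 5 members that failed the filter on low counts were also complex IV isoforms. Cox4i2, the lung isoform, had 2 counts in KO 3 and 1 in each WT library, Ndufa4l2 had 1 count in KO 3, Cox8c had 1 count in WT 1, and Cox8b and Cox7b2 had none in any library.

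Complex V had 10 rises among 16 nuclear genes (62.5%, beside 18.5% of all genes tested) and a median log2 fold change of 0.32. Estimates were positive for all 16, beside 50.2% of all genes tested. The summed nuclear level was 2298, 2669.6 and 2458 CPM in KO libraries, against 1989, 1878 and 1953 CPM in WT libraries, a ratio of means of 1.28. In the catalytic F1 part, Atp5b, the beta subunit that makes ATP (ENSMUSG00000025393, GRCm38 chr10:128083273-128090391, plus strand), was at 598, 753 and 671 CPM in KO libraries, against 468, 451 and 492 CPM in WT libraries (log2 fold change 0.52, SE 0.09, edgeR adjusted p = 0.00807). Atp5e, the epsilon subunit of the central stalk, was at 87.5, 102 and 98.1 CPM in KO libraries, against 71.6, 68.1 and 64.3 CPM in WT libraries (log2 fold change 0.50, SE 0.08, edgeR adjusted p = 0.00622). Atp5a1, the alpha subunit that alternates with beta in the ring, averaged 577 ± 36.9 CPM in KO and 489 ± 13.4 CPM in WT (SD, n = 3 each; log2 fold change 0.24, edgeR adjusted p = 0.0308), a call that held without KO 1 and was lost without any other library (edgeR adjusted p of 0.068 to 0.0993). Atp5c1 and Atp5d, the other central stalk subunits, were not called, at 0.20 and 0.19.

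The c ring, which turns as protons pass, is made of one protein encoded by 3 genes that differ in their import sequence. Atp5g1 (ENSMUSG00000006057, GRCm38 chr11:96068852-96075670, minus strand) was at 44.7, 54.4 and 45.2 CPM in KO libraries, against 31.3, 29.2 and 28.8 CPM in WT libraries (log2 fold change 0.69, SE 0.09, edgeR adjusted p = 0.00503). Atp5g3 was at 123, 148 and 140.2 CPM in KO libraries, against 109, 103 and 100.3 CPM in WT libraries (log2 fold change 0.40, SE 0.08, edgeR adjusted p = 0.0108). Atp5g2 was at 12.3, 15.6 and 12.6 CPM in KO libraries, against 12.4, 10.2 and 9.83 CPM in WT libraries and was not called (log2 fold change 0.32, edgeR adjusted p = 0.0964). Atp5g1 thus rose by 1.62-fold and Atp5g3 by 1.32-fold, and all KO libraries lay above all WT libraries for both. Of the counts of the 3 genes together, not corrected for length, Atp5g1 took 24.8, 24.9 and 22.8% in KO libraries, against 20.4, 20.5 and 20.7% in WT libraries.

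Atp5k, the e subunit that helps ATP synthases pair up at the edges of cristae (ENSMUSG00000050856, GRCm38 chr5:108433244-108434448, minus strand), was at 43.4, 52.9 and 49.1 CPM in KO libraries, against 32.7, 29.3 and 29.2 CPM in WT libraries (log2 fold change 0.67, SE 0.09, edgeR adjusted p = 0.00521). Its promoter, printed above, holds the 2 overlapping NRF1 matches. Atp5j2, the f subunit, rose by 0.47, and Atp5o, the oligomycin sensitivity protein at the top of the peripheral stalk, by 0.44, with edgeR adjusted p of 0.00637 and 0.00832. The g subunit gene Atp5l and the peripheral stalk genes Atp5f1 and Atp5h were not called, at 0.17, 0.20 and 0.12.

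**Figure D4:**
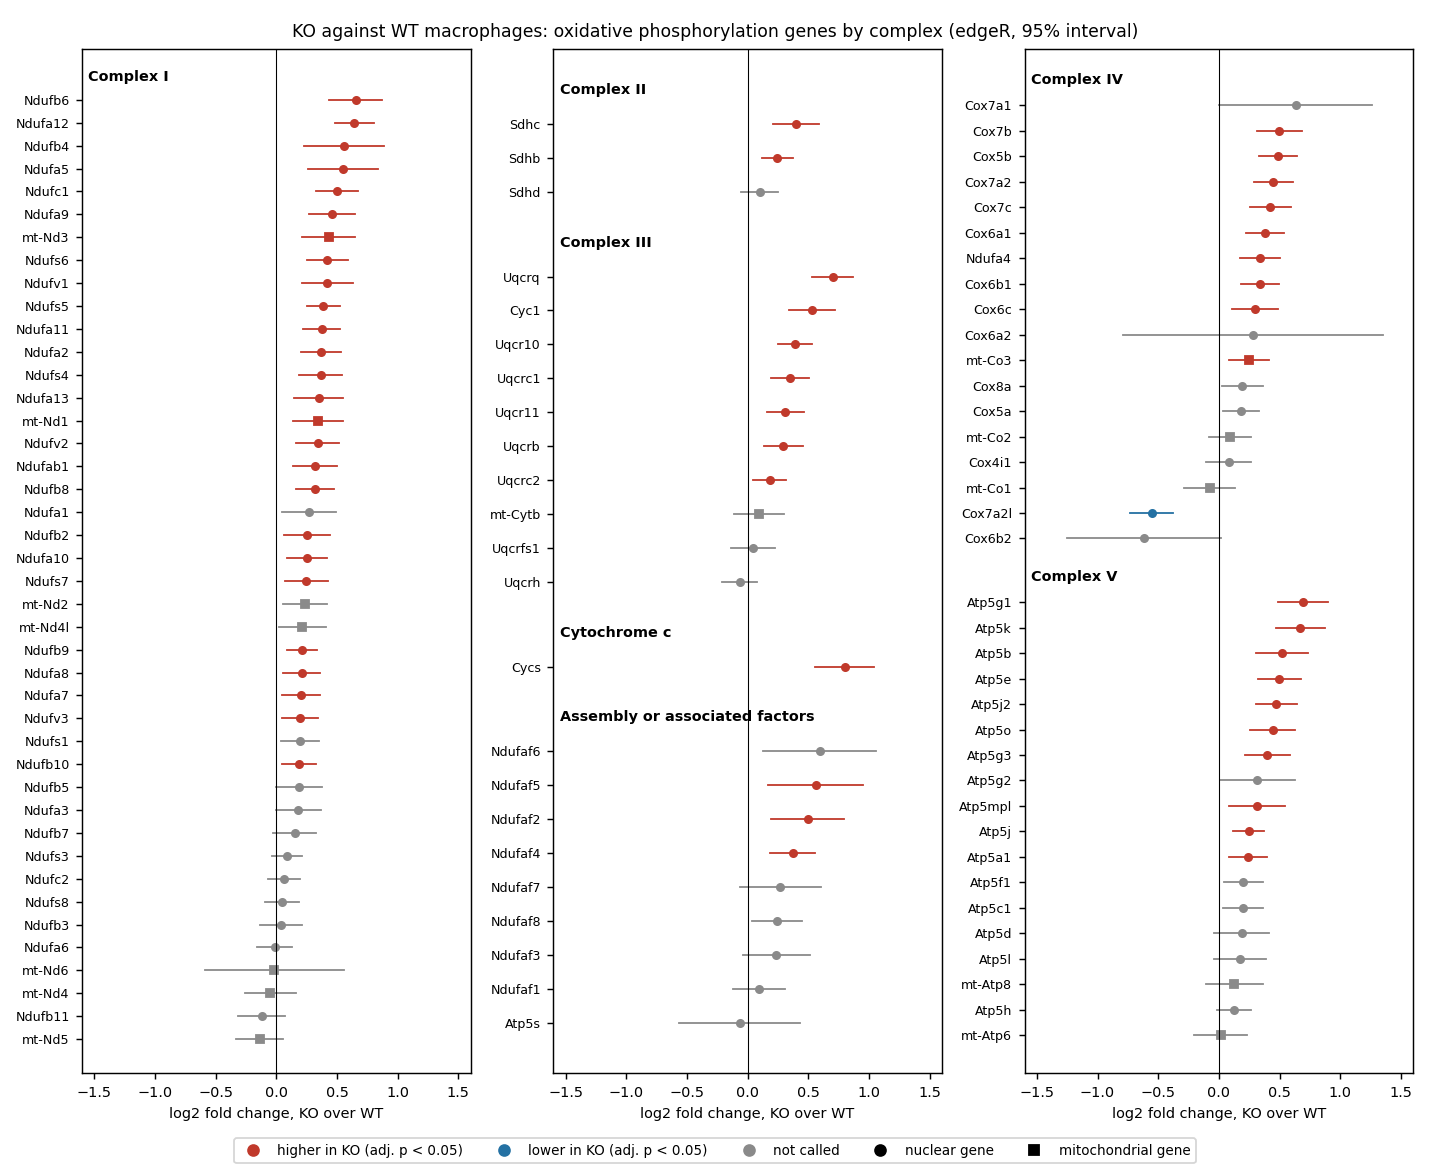
Log2 fold change of KO over WT with its 95% interval for 101 of the 102 members tested, by complex, circles for nuclear and squares for mitochondrial genes. Red marks edgeR adjusted p under 0.05 and higher in KO, blue the same and lower in KO, grey not called; Cycs is highest at 0.80 and Cox7a2l is the only blue point.

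The mitochondrial genes are transcribed from both strands of a circular genome as long precursors, from which the mRNAs are cut. All levels here are for reads counted on the annotated gene. Per kb of gene, mt-Co1, which encodes the catalytic subunit of complex IV, was the most abundant, at 5372 CPM per kb in KO and 5656 CPM per kb in WT. It was followed by mt-Co2 at 2493 CPM per kb in KO and 2342 CPM per kb in WT, and mt-Nd6, the only member on the minus strand, was the least abundant, at 29.1 CPM per kb in KO and 29.4 CPM per kb in WT. The nuclear partner Cox4i1 stood at 453 CPM per kb in KO and 429 CPM per kb in WT over its annotated main transcript. Per length, the mRNA of the mitochondrial subunit was thus far more abundant than that of its nuclear partner in both genotypes.

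The 3 mitochondrial genes that rose (23.1% of 13, beside 18.5% of all genes tested) were mt-Nd1, mt-Nd3 and mt-Co3. mt-Nd3, a membrane subunit of complex I (ENSMUSG00000064360, GRCm38 chrM:9459-9806, plus strand), was at 145, 114 and 120.4 CPM in KO libraries, against 91.1, 93.3 and 97.5 CPM in WT libraries (log2 fold change 0.43, SE 0.09, edgeR adjusted p = 0.0139). mt-Nd1, which forms part of the quinone site (ENSMUSG00000064341, GRCm38 chrM:2751-3707, plus strand), was at 1505, 1449.5 and 1445 CPM in KO libraries, against 1120.0, 1058 and 1298 CPM in WT libraries (log2 fold change 0.34, SE 0.09, edgeR adjusted p = 0.0232). mt-Co3, a core subunit of complex IV (ENSMUSG00000064358, GRCm38 chrM:8607-9390, plus strand), was at 1702, 1551 and 1531 CPM in KO libraries, against 1365, 1312 and 1353 CPM in WT libraries (log2 fold change 0.25, SE 0.07, edgeR adjusted p = 0.0307). In all 3 genes the KO libraries lay above the WT libraries, but each call depended on single libraries. The mt-Nd3 call was lost without WT 1 or WT 2 (edgeR adjusted p of 0.0619 and 0.0501), the mt-Nd1 call without KO 2, KO 3, WT 1 or WT 2 (0.0501 to 0.0908), and the mt-Co3 call whichever library was left out (0.0507 to 0.103). The number of mitochondrial rises in edgeR was accordingly 2 without KO 1, 1 without KO 2, 1 without KO 3, 0 without WT 1, 0 without WT 2 and 3 without WT 3. In the same order, the unadjusted p of edgeR was under 0.05 for 3, 5, 4, 3, 3 and 6 genes that were higher.

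mt-Nd2 and mt-Nd4l, membrane subunits of complex I, also had no overlap between genotypes but were not called. mt-Nd2 was at 994, 896 and 918 CPM in KO libraries, against 762, 763 and 863 CPM in WT libraries (log2 fold change 0.23, edgeR adjusted p = 0.0518), and mt-Nd4l at 215, 199 and 195 CPM in KO libraries, against 157, 177 and 191 CPM in WT libraries (log2 fold change 0.21, edgeR adjusted p = 0.0825). The other 8 genes overlapped between genotypes. mt-Cytb, the cytochrome b of complex III, was at 2392, 2133 and 2111 CPM in KO libraries, against 2010.2, 1948 and 2259 CPM in WT libraries (log2 fold change 0.09, edgeR adjusted p = 0.429). mt-Co1 was at 9121, 8010.4 and 7767 CPM in KO libraries, against 8435, 8655 and 9125 CPM in WT libraries (log2 fold change -0.07, edgeR adjusted p = 0.543), and mt-Co2 at 1729, 1672 and 1714 CPM in KO libraries, against 1571, 1502 and 1733 CPM in WT libraries (log2 fold change 0.09, edgeR adjusted p = 0.373). The ATP synthase genes mt-Atp6 and mt-Atp8, which overlap on the same strand and may share reads, had log2 fold changes of 0.01 and 0.13. mt-Nd4 and mt-Nd6 were at -0.05 and -0.02, the estimate for mt-Nd6 having a wide 95% interval of -0.59 to 0.56. No mitochondrial gene was lower in KO in edgeR at an adjusted p under 0.05, and 0 were at an unadjusted p under 0.05; DESeq2 and limma-voom called 0 and limma-voom with sample quality weights 1.

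mt-Nd5, the proton-pumping subunit at the far end of complex I, had the lowest estimate of the 13, at 1745, 1557 and 1491 CPM in KO libraries, against 1743, 1681 and 1850.2 CPM in WT libraries (log2 fold change -0.14, edgeR adjusted p = 0.224), with overlapping genotypes. The number of mt-Nd5 counts for each mt-Nd1 count was 1.16, 1.07 and 1.03 in KO libraries, against 1.56, 1.59 and 1.43 in WT libraries. The genotypes did not overlap in this ratio, which averaged 1.09 ± 0.0649 in KO and 1.52 ± 0.0859 in WT (SD, n = 3 each). This pair was chosen after the values were seen, as the complex I genes near both ends of the range, so its separation is a description and a difference among these genes was not tested. Upstream of mt-Nd1 lie the ribosomal RNA genes, which are not members. The small one, mt-Rnr1 (ENSMUSG00000064337, GRCm38 chrM:70-1024, plus strand), was at 328, 242 and 255 CPM in KO libraries, against 379, 411 and 397 CPM in WT libraries (log2 fold change -0.53, SE 0.12, edgeR adjusted p = 0.0145), a fall lost without KO 3 or WT 2 (edgeR adjusted p of 0.0577 and 0.051). The large one, mt-Rnr2, was at 1197, 938 and 1203 CPM in KO libraries, against 1105, 1229 and 1251 CPM in WT libraries (log2 fold change -0.10, edgeR adjusted p = 0.491) and was not called. How the libraries were depleted of ribosomal RNA or selected for mRNA is not given in the sources used here.

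**Figure D5:**
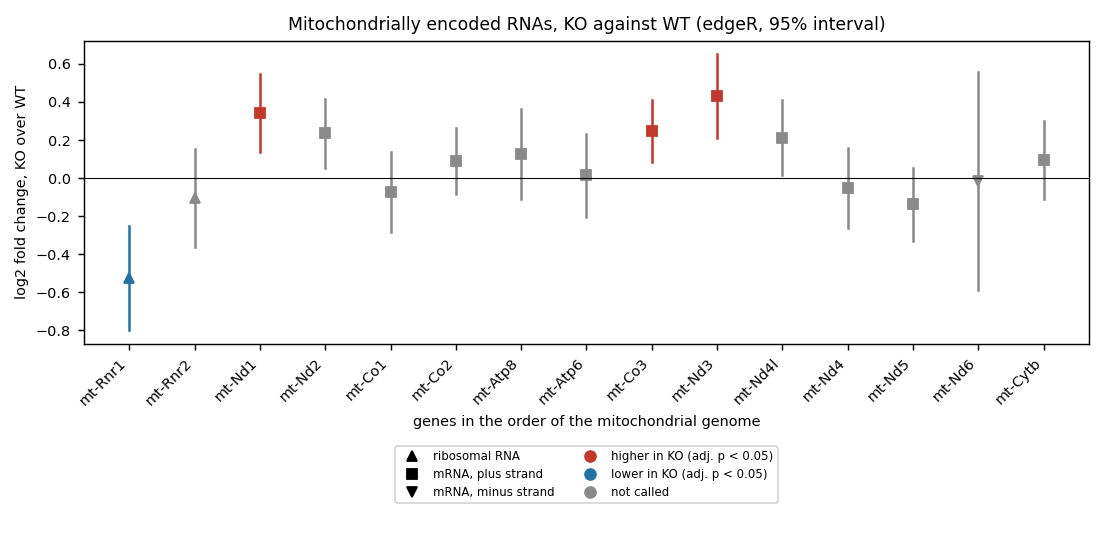
Log2 fold change of KO over WT with its 95% interval for the 13 mitochondrial mRNAs and the 2 ribosomal RNAs, in their order on the mitochondrial genome. mt-Nd1, mt-Co3 and mt-Nd3 are higher in KO and mt-Rnr1 is lower by edgeR's test; the other genes were not called.

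Among the 9 factors that the symbols brought in, 3 rose (33.3%, beside 18.5% of all genes tested). Ndufaf5, which modifies a complex I subunit, averaged 4.96 ± 0.195 CPM in KO and 3.35 ± 0.657 CPM in WT, Ndufaf2, a chaperone of late complex I assembly, 8.58 ± 1.12 CPM in KO and 6.08 ± 0.432 CPM in WT, and Ndufaf4, of early assembly, 11.9 ± 0.362 CPM in KO and 9.20 ± 0.254 CPM in WT (SD, n = 3 each). Their log2 fold changes were 0.56, 0.50 and 0.37, with edgeR adjusted p of 0.038, 0.0239 and 0.0134. All 3 calls were lost without WT 2 (edgeR adjusted p of 0.0501 to 0.11), and each was lost in 2 or 3 further reduced sets. The class held 5 rises without KO 1 and 1 without KO 2, KO 3, WT 1 or WT 3. The share of rises in this class was lower than the 65.0% among the 80 other nuclear members tested, a difference of counts that was not tested.

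Genes that serve the same complexes but lie outside the symbol rule included further assembly factors, of which 11 of the 43 tested rose (25.6%, beside 18.5% of all genes tested) and 1 fell (2.33%, beside 16.8%). Nubpl, which delivers iron-sulfur clusters to complex I, averaged 10.8 ± 0.751 CPM in KO and 6.56 ± 1.26 CPM in WT (log2 fold change 0.72, edgeR adjusted p = 0.0122), and Uqcc2, an assembly factor of complex III, 27.1 ± 2.95 CPM in KO and 17.5 ± 0.112 CPM in WT (log2 fold change 0.64, edgeR adjusted p = 0.00558; SD, n = 3 each). Cox17, a copper chaperone of complex IV, and Higd1a, a small complex IV factor, rose by log2 fold changes of 0.54 and 0.53. Surf1, another complex IV factor, fell by 0.24 on the log2 scale, a call lost without KO 2, KO 3, WT 1 or WT 2 (edgeR adjusted p of 0.0815 to 0.133). The number of rises in this list was 5 without KO 2, WT 1 or WT 2, 6 without WT 3 and 7 without KO 3.

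In coenzyme Q synthesis, which makes the carrier between complexes I, II and III, 6 of 13 genes rose (46.2%, beside 18.5% of all genes tested) and 1 fell. Pdss1, which builds the isoprenoid tail, was at 3.86, 4.91 and 4.39 CPM in KO libraries, against 2.20, 1.96 and 2.07 CPM in WT libraries (log2 fold change 1.08, SE 0.16, edgeR adjusted p = 0.00606). Coq7, the hydroxylase of the last ring step but one, was at 13.7, 20.9 and 15.4 CPM in KO libraries, against 9.46, 8.19 and 9.86 CPM in WT libraries (log2 fold change 0.86, SE 0.17, edgeR adjusted p = 0.0105), and Coq3, a methyltransferase, averaged 11.1 ± 1.44 CPM in KO and 6.60 ± 0.75 CPM in WT (SD, n = 3 each; log2 fold change 0.75, edgeR adjusted p = 0.00821). These 3 calls held whichever library was left out. Coq8a, a kinase-like regulator of the pathway, fell, averaging 7.38 ± 0.604 CPM in KO and 9.88 ± 0.367 CPM in WT (log2 fold change -0.42, edgeR adjusted p = 0.0184), and lost its call without KO 2 or WT 1 (edgeR adjusted p of 0.0512 and 0.0708). The rises in this list numbered 3 without KO 2, KO 3, WT 2 or WT 3, 4 without WT 1 and 6 without KO 1.

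Carriers that exchange ATP and other metabolites with the cytosol rose in 5 of 7 genes tested (71.4%, beside 18.5% of all genes). Vdac1 and Vdac2, porins of the outer membrane, rose by log2 fold changes of 0.42 and 0.39, and the adenine nucleotide translocator Slc25a5 averaged 321 ± 17.8 CPM in KO and 241 ± 4.35 CPM in WT (SD, n = 3 each; log2 fold change 0.41, edgeR adjusted p = 0.00609). Slc25a4, a second translocator, rose by 0.29, a call that held only with all libraries or without KO 1 (edgeR adjusted p of 0.0546 to 0.0917 otherwise). The list counted 3 rises without KO 2, WT 1 or WT 2, 4 without KO 3 or WT 3 and 5 without KO 1. Of 15 genes of fission, fusion and protein import 7 rose (46.7%). Tomm40, the outer membrane import pore, averaged 52.4 ± 6.40 CPM in KO and 34.4 ± 2.86 CPM in WT (log2 fold change 0.61, edgeR adjusted p = 0.00726; SD, n = 3 each), and the inner membrane import genes Timm50, Timm23 and Timm17a rose by 0.61, 0.51 and 0.49.

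For the machinery that transcribes and processes mitochondrial DNA, 11 of 30 genes rose (36.7%, beside 18.5% of all genes tested) and 2 fell (6.67%, beside 16.8%). Top1mt, the mitochondrial topoisomerase, averaged 5.85 ± 0.344 CPM in KO and 3.55 ± 0.288 CPM in WT (log2 fold change 0.72, edgeR adjusted p = 0.00821; SD, n = 3 each), and Tbrg4, Hsd17b10 and Rexo2, which act on mitochondrial RNA, rose by log2 fold changes of 0.46, 0.45 and 0.39. The polymerase gene Polrmt and the transcription factor genes Tfam and Tfb2m, named after their values were seen, were not called, at 0.03, 0.08 and -0.09. The count of rises was 5 without KO 2, WT 1 or WT 2, 6 without KO 3 or WT 3, and 10 without KO 1. The falls were those of Polg, the DNA polymerase, and Ssbp1, which coats single-stranded mitochondrial DNA, by 0.25 and 0.26 on the log2 scale, and both were lost without KO 2, KO 3, WT 1 or WT 2 (edgeR adjusted p of 0.0765 to 0.134), and that of Polg also without WT 3 (edgeR adjusted p = 0.0613).

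Of 13 genes tested in a list of nuclear-encoded regulators of respiration, 5 fell (38.5%, beside 16.8% of all genes tested). The list is not limited to transcription factors. Sirt3, the mitochondrial deacetylase, was at 7.41, 5.97 and 7.74 CPM in KO libraries, against 11.7, 10.8 and 11.9 CPM in WT libraries (log2 fold change -0.71, SE 0.12, edgeR adjusted p = 0.00741). Nrip1, a corepressor, and Nfe2l2, the antioxidant response factor, fell by 0.54 and 0.50 on the log2 scale, and these 3 calls held whichever library was left out. Gabpb2, which encodes a partner of GABPA, fell by 0.24, a call lost without KO 3 or WT 2 (edgeR adjusted p of 0.0626 and 0.0524). Yy1, the factor whose letters were searched in the promoters, averaged 119.6 ± 3.90 CPM in KO and 139.7 ± 1.44 CPM in WT (SD, n = 3 each) and fell by 0.22 on the log2 scale (edgeR adjusted p = 0.0164), a call lost without WT 1 or WT 2 (edgeR adjusted p of 0.0636 and 0.0522). The count of falls was 3 without WT 2, 4 without KO 3 or WT 1, 5 without KO 2 or WT 3 and 6 without KO 1. Nrf1, whose letters were searched as well, averaged 28.2 ± 1.55 CPM in KO and 33.3 ± 2.85 CPM in WT (SD, n = 3 each; log2 fold change -0.24, edgeR adjusted p = 0.0517) and was not called. Gabpa, whose product binds the ETS letters, was not called either (log2 fold change -0.20, edgeR adjusted p = 0.0551). The coactivator gene Ppargc1a failed the filter on low counts. Yy1, Nrf1, Gabpa and Ppargc1a are named after their values were seen.

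Some proliferation genes rose as well. Of 20 such genes 10 rose (50%, beside 18.5% of all genes tested), the median log2 fold change being 1.04, and their summed level was 1312 to 2047 CPM in KO libraries, against 599 to 1049 CPM in WT libraries. KO 2 was highest and WT 2 lowest both in this sum and in the summed nuclear oxidative phosphorylation level. The KO libraries had the same order in both sums, but WT 1 and WT 3 did not. WT 3 was above WT 1 in the proliferation sum (1049 and 750 CPM) and below it in the nuclear sum (5673 and 5969 CPM). The number of proliferation genes that rose was 1 without WT 1, 5 without KO 2 or KO 3, 6 without WT 2, 9 without KO 1 and 20 without WT 3. Their part in the nuclear rises was not tested. Markers of other cells were low: neutrophil markers summed to 40.8 to 117 CPM in KO libraries, against 34.3 to 88.1 CPM in WT libraries, with overlapping genotypes, and B cell markers to 49.2 to 77.3 CPM in KO libraries, against 106 to 131 CPM in WT libraries, of which Ighm fell. Erythroid markers were at most 0.281 CPM in sum in KO libraries and 0.138 CPM in WT libraries, with Alas2 and Slc4a1 at 0 in all libraries. T and NK cell, fibroblast, muscle and dendritic cell lists each summed to at most 18.6 CPM in any library.

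Several members cannot be counted without doubt. Exons of 25 nuclear members overlap an exon of a gene on the opposite strand, among them Atp5j with Gabpa and Ndufb2 with Braf, and the strand setting of the counting is not given in the sources used here. On chromosome 8, which carries Cdh11, Cox4i1 lies 17.9 Mb and Ndufb7 19.1 Mb from the deleted gene and neither was called. Ndufa13, farther off on this chromosome at 32.7 Mb, rose (log2 fold change 0.35, edgeR adjusted p = 0.0212). That call was lost without KO 2, KO 3 or WT 2 (edgeR adjusted p of 0.056 to 0.0658). Ndufb7 averaged 80.2 ± 6.48 CPM in KO and 72.3 ± 3.80 CPM in WT (SD, n = 3 each; log2 fold change 0.15, edgeR adjusted p = 0.153).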

How the data were processed

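RNA was sequenced from directional libraries of 6 macrophage cultures, per the labels' protocols, and groups were taken from the genotype label (3 KO, 3 WT). Replicates were numbered by sample order because the labels give none, so no number pairs libraries. The authors deposited whole-number counts per Ensembl gene for 42256 genes. The authors deposited, too, a normalized signal, in which counts are divided by factors that differ between genes and libraries. DRAGEN, DESeq2 and mm10 are named, per the submitters' processing notes. Roles, versions, annotation and strand setting are not given in these sources. Symbols and coordinates are those of GENCODE M21 on GRCm38, in which all 42256 identifiers were found, and promoters are from RefSeq.

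The test of the counts was that of edgeR 4.0.16 (R 4.3.3): filterByExpr (minimum count 10, 12862 genes), TMM scaling and the robust quasi-likelihood test without covariates, with Benjamini-Hochberg adjustment and a threshold of 0.05. Totals were 27170943 to 37113689 counts, and the biological coefficient of variation was 0.121. Replicates differed beyond sampling noise (chi-square per degree of freedom 12.57 to 52.6), so none was treated as a copy of another. The test was also run on simulated counts. Alternatives were DESeq2 1.42.0, limma 3.58.1 (voom with and without quality weights, and on log2 of the signal plus 1 or 8), other scalings and filters, and leaving out each library.

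The members, gene lists and tests were chosen with earlier results of these data known. Named genes were all mitochondrial members, up to 4 called genes of largest change in each direction per class and up to 4 called per other list, the isoform sets, complex II, Cyc1 and Cycs, and members on chromosome 8 within 20 Mb of Cdh11. Further genes named were chosen after their values were seen. They include unchanged or core subunits named beside these genes. Some single genes are not reported here, although counts and sums over groups include them.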

Additional observations from a re-analysis of the deposited data

How the results depend on the processing

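The number of nuclear rises was 51 with DESeq2, 53 with limma-voom, 64 with voom quality weights, 45 with limma on the log2 signal plus 1 or plus 8, and 49 to 63 over the scalings and filters. Leaving out single libraries gave 32 to 62 nuclear rises, 32 being without WT 2, and 1 fall each time. The mitochondrial rises, 3 in edgeR, were 5 with upper-quartile scaling, which moved the median of all genes by 0.06, and 0 to 3 without single libraries. With voom quality weights 1 mitochondrial gene was lower, against 0 in edgeR. The median log2 fold change of the nuclear members ran from 0.27 to 0.36 and that of the mitochondrial members from 0.05 to 0.18. The log2 ratio of the mean mitochondrial to nuclear count ratios of KO over WT, -0.24, was -0.12 without the 3 most abundant mitochondrial genes and -0.35 to -0.18 without single libraries. Over 85 named genes and 17 settings (1442 pairs), 76 calls were lost, 66 of them without a single library, 15 were gained and 0 were turned in direction. Where a fit leaves out a library, fewer libraries also give less power. No paired analysis was possible because the labels give no replicate numbers. Genes of few counts, such as mt-Nd6 and the tissue isoforms of complex IV, limit what can be detected.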
